A study of Mus musculus with 2 samples.

Results

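Interferon-gamma, tumor necrosis factor, the lymphotoxins, GM-CSF and the receptors of the first 2 were described in CD45+ leukocytes sorted from mouse MC38 colon tumors. The set held 9 of the 32285 genes in the tables and was chosen by symbol: the ligand genes Ifng, Tnf, Lta, Ltb and Csf2, and the receptor genes Ifngr1, Ifngr2, Tnfrsf1a and Tnfrsf1b. The choice used no cut on a measured value, but it was made with earlier results of these data known. MC38 cells, a mouse colon carcinoma line, had been placed under the skin of both flanks of C57BL/6 mice, and microwave ablation (MWA), which destroys tissue by heat, was applied to the right tumor alone. The cells came from the left tumor, which was not ablated, on day 8 after ablation of the right one. The MWA group is labelled with ablation alone, to which the study's treatment design adds an isotype control antibody, and the MWA plus TIGIT group received ablation and intraperitoneal anti-TIGIT, which blocks an inhibitory receptor of T and NK cells. Each group was a single library of droplet 3′ RNA sequencing, and how many mice were pooled in each was not given in the sources used here. Neither an unablated group nor an anti-TIGIT group without ablation was analysed here, so both groups share the ablation. A single library in each arm left nothing to test one arm against the other with: the 95% intervals below cover counting error only, and differences between mice and between libraries cannot be told apart from the treatment.

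Interferon-gamma, the product of Ifng, is secreted by activated T cells and NK cells and binds a receptor with a ligand-binding chain (Ifngr1) and a signalling chain (Ifngr2), which passes the signal through the kinases Jak1 and Jak2. Tnf is made as a membrane protein by myeloid cells and T cells, is released by the protease Adam17, and binds Tnfrsf1a, a receptor with a death domain found on many cells, and Tnfrsf1b, a receptor without one that is prominent on regulatory T cells. Lta and Ltb form the lymphotoxin heterotrimer that binds Ltbr, while Csf2 encodes GM-CSF, a growth factor for macrophages, granulocytes and dendritic cells. Cytokine mRNAs such as those of Ifng, Tnf and Csf2 are made in bursts on activation and decay quickly. At a given moment few cells therefore hold many copies of them.

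All 9 genes were protein-coding in the GRCm38 (mm10) annotation, with identifiers that matched the tables. Ifng (ENSMUSG00000055170) lay at chr10:118441046-118445892 on the plus strand and Ifngr1 (ENSMUSG00000020009) at chr10:19591949-19610229 on the plus strand. Ifngr2 (ENSMUSG00000022965) lay at chr16:91547072-91565623 on the plus strand, Tnfrsf1a (ENSMUSG00000030341) at chr6:125349362-125362484 on the plus strand and Tnfrsf1b (ENSMUSG00000028599) at chr4:145213463-145246870 on the minus strand. Csf2 (ENSMUSG00000018916) lay at chr11:54247271-54249667 on the minus strand. The remaining ligands were neighbours on chromosome 17, within a span of 10913 bases: Ltb (ENSMUSG00000024399) at chr17:35194439-35196320 on the plus strand, Tnf (ENSMUSG00000024401) at chr17:35199381-35202007 on the minus strand and Lta (ENSMUSG00000024402) at chr17:35203165-35205351 on the minus strand. Ltb and Tnf were 3060 bases apart and Tnf and Lta 1157 bases apart, without overlap.

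The 250 bases before the start of Ifng, Tnf and Lta are shown because these genes carried most of the differences between libraries described further on. They were taken from RefSeq (GRCm38.p6) and run 5′ to 3′ on the coding strand, with Ifng at chr10:118440796-118441045 (plus), Tnf at chr17:35202008-35202257 (minus) and Lta at chr17:35205352-35205601 (minus). Capitals mark GGAAA on either strand (TTTCC where it lies on the other strand), the core shared by many NFAT and NF-kB sites, and TATAAA on the coding strand.
Ifng: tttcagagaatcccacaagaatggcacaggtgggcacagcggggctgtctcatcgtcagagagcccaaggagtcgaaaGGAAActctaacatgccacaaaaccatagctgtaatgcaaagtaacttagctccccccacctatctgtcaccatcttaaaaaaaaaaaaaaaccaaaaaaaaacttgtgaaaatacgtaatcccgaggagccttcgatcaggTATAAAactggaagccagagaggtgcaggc
Tnf: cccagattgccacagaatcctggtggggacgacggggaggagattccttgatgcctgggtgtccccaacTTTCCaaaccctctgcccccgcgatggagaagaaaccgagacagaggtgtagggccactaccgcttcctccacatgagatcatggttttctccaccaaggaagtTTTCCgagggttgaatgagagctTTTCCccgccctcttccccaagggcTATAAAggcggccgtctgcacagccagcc
Lta: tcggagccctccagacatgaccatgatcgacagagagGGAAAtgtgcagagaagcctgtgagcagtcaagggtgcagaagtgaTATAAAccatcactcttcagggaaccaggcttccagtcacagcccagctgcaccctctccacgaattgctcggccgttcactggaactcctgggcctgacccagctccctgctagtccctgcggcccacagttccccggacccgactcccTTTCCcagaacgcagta

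The Tnf window held 3 GGAAA matches, all on the other strand, 181, 77 and 54 bases before the start, and TATAAA 29 bases before it. In the Ifng window GGAAA stood 172 bases and TATAAA 30 bases before the start. Lta had GGAAA at 213 bases and, on the other strand, at 17 bases, with TATAAA at 167 bases. Among 32851 promoters of the same length, 55.6% held GGAAA on either strand, 6.39% held it 3 times or more, and 7.59% held TATAAA on the coding strand. Ifngr1, Tnfrsf1a and Tnfrsf1b had no GGAAA in this window, Ifngr2 and Ltb 1 match each and Csf2 2. TGANTCA, an AP-1 motif searched on both strands, was in 6.75% of promoters and in 0 of the 9. These matches describe letters only.

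The MWA library held 10217 barcodes with 66152465 UMIs (unique molecular identifiers, each a captured transcript) and the MWA plus TIGIT library 10190 barcodes with 78751205 UMIs. After filters, 9231 and 9127 cells remained, with a median of 5340 and 6345 UMIs. Macrophages had medians of 8580 and 10599 UMIs in MWA and MWA plus TIGIT. All CD8 T cells together had 4181.5 and 4045, but the median rose in each CD8 class described below. In effector CD8 T-like cells, the shallowest of those classes, it was 2452 and 2962 UMIs, and their number went from 433 to 769. Regulatory T-like cells had medians of 2231 and 2752 UMIs. The libraries shared 37 barcodes, which were 60 of the cells kept. Clusters built without the 9 genes gave 24 classes, named from marker lists or, where those lists fell short, by their leading genes, and 291 and 372 cells stayed unnamed. A level below is in CPM, the UMIs of a gene summed over the cells of a class, divided by all UMIs of that class and scaled to 1000000. T cell markers reached background in other cells: 10 T cell genes summed to 5324 and 5934 CPM in CD8 T cells and to 33.3 and 18.4 CPM in macrophages. Conversely, 13 macrophage genes summed to 32200.1 and 36981 CPM in macrophages and to 713 and 758 CPM in CD8 T cells. How much of a myeloid gene at a few CPM in T cells was such background was not tested.

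Between libraries, 113 of the 216 combinations of a gene and a class held at least 50 UMIs and were compared. In 8 of them MWA plus TIGIT was more than 1.5-fold higher and in 3 more than 1.5-fold lower. Across all genes and classes that met the same minimum, 111151 combinations, 5.18% were higher and 2.28% lower, so the shares among these 9 genes were near the background. In 7 of the 11 the interval of the ratio excluded no difference. The higher levels were Ifng and Tnf in Ccl1 exhausted T-like cells, Ifng and Ltb in a heat-shock T cluster, Lta and Tnf in Gzmf exhausted T-like cells, Lta in Il17a gamma-delta T-like cells and Tnfrsf1a in conventional CD4 T-like cells. The lower ones were Tnf in Ly6c2 monocyte-like cells, Ifngr2 in conventional CD4 T-like cells and Ltb in Cxcl9 macrophage-like cells. Class by class, the share of all genes that were more than 1.5-fold higher was 9.24% in the Ccl1 class, 9.12% in the Gzmf class, 10.8% in the heat-shock cluster, 5.31% in conventional CD4 T-like cells and 5.46% in Il17a gamma-delta T-like cells. Ifngr1, measured in 22 classes, and Tnfrsf1b, measured in 19, were past 1.5-fold in none of them, where Tnf was past it in 3 of 15 and Lta in 2 of 8. The genes differed in counts, with 12533 and 15376 UMIs of Ifngr1, 2243 and 2484 of Tnf and 469 and 561 of Lta. Low counts pass 1.5-fold more readily by counting error. For Tnf in the Gzmf class and Lta in Il17a gamma-delta T-like cells the interval included no difference.

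**Figure D1:**
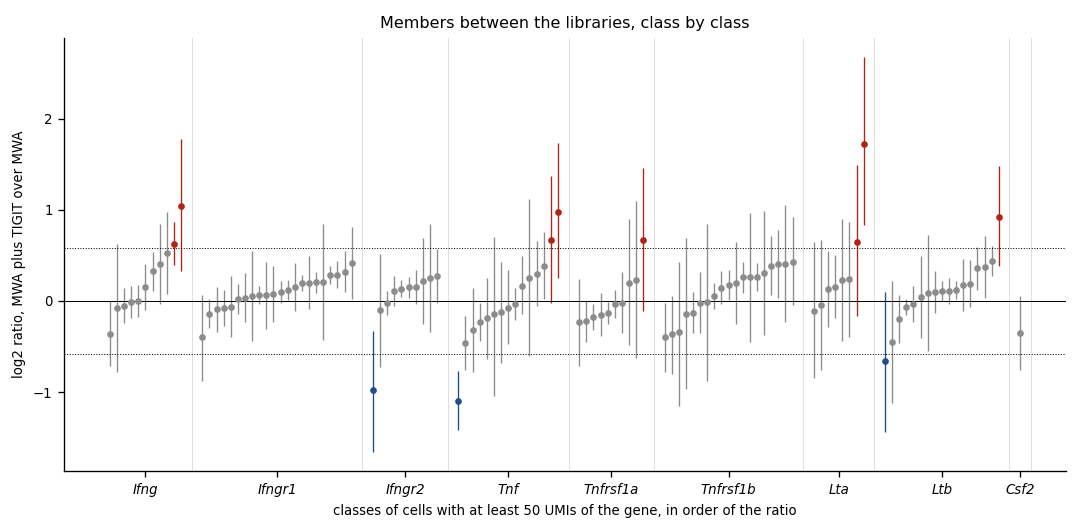
Log2 ratio of MWA plus TIGIT over MWA (vertical axis) for each gene and class with at least 50 UMIs, with 95% intervals for counting error. Along the horizontal axis the classes of each gene stand in order of the ratio. Points past the dotted 1.5-fold lines are red (higher, 8) or blue (lower, 3), and the other 102 lie between the lines.

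Ifng was a transcript of T and NK cells. Its highest level in both libraries was in the Ccl1 exhausted T-like cells, a cluster of 103 and 79 cells led by the chemokine gene Ccl1. Of the exhaustion marker list, Ccl1, Xcl1, Rgs16, Nrgn and Cd200 were among its leading genes. Pdcd1 and Lag3 of that list were leading genes of the Gzmf class and not of this one, so the name rests on part of the list. Ccr7, a marker of stem CD8 cells, was 176 and 224 CPM in the Ccl1 class and 3.06 and 13.8 CPM in the Gzmf class. In the Ccl1 class Ifng measured 460.0 CPM (interval 405 to 521) from 249 UMIs in MWA and 711 CPM (638 to 790) from 346 UMIs in MWA plus TIGIT, a log2 ratio of 0.63 (0.39 to 0.87). The intervals of the libraries did not overlap, and in this class 9.24% of 2337 genes were more than 1.5-fold higher. The ratio was under 1.5-fold in 2 alternatives, at 0.50 after TMM scaling and 0.49 when each cell was weighted equally, and it was 1.08 among cells of at most 5000 UMIs.

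Cluster membership needs care here, since the Ccl1 cluster was not purely CD8. Cells with UMIs of Cd8a or Cd8b1 and none of Cd4 numbered 66 and 48, and cells with Cd4 alone 21 and 23. Ifng was at 389 and 804 CPM in the Cd8 cells (log2 ratio 1.05, 0.75 to 1.35), and at 670.3 and 265 CPM in the Cd4 cells, the opposite order (−1.34). This split was chosen after the data were seen. Leaving out the 2 cells with the most Ifng UMIs in each library gave 327 and 533 CPM and a log2 ratio of 0.70 (0.42 to 0.99).

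Other CD8 classes followed Ccl1 exhausted T-like cells in Ifng. Gzmf exhausted T-like cells, marked by the cytotoxic granule gene Gzmf, had 306 and 383 CPM (log2 ratio 0.33, 0.11 to 0.54), and effector CD8 T-like cells 314 and 303 CPM (−0.05). Interferon-induced CD8 T-like cells had 328 and 256 CPM (−0.36, −0.71 to −0.00). In MWA the intervals of these 3 classes overlapped, and they could not be ordered. The Ccl1 class was 1.505 times Gzmf (1.28 to 1.77) in MWA and 1.86 times (1.59 to 2.16) in MWA plus TIGIT. Stem CD8 T-like cells, the least differentiated, had 6 and 21 UMIs and 12.8 and 38.5 CPM.

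Outside the CD8 classes, conventional CD4 T-like cells carried 183 CPM of Ifng in both libraries (log2 ratio −0.00), about as much as cycling CD8 T-like cells at 153 and 152 CPM. NK-like cells had 109.6 and 145 CPM and Klra gamma-delta T-like cells 90.3 and 130.0 CPM (log2 ratio 0.52, 0.08 to 0.97). Regulatory T-like cells were low, at 19.1 and 18.1 CPM. The 46 and 44 cells of the heat-shock T cluster, set apart by chaperone genes, had 173 CPM from 27 UMIs and 356 CPM from 47 UMIs (log2 ratio 1.04, 0.33 to 1.78). In that cluster 10.8% of genes were more than 1.5-fold higher. Macrophage classes ranged from 0 to 2.62 CPM, and T cell markers were also low but present there.

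Shares of cells were compared at equal depth. Among CD8 T cells, 40.8% and 43.6% had at least 1 Ifng UMI, and 17.7% and 18.1% once each cell was thinned to 1000 UMIs; the same thinned share in macrophages, the background, was 0.104% and 0.205%. In Ccl1 exhausted T-like cells the thinned shares were 22.8% and 19.0%, and Gzmf exhausted T-like cells were at 27.1% and 29.6%. Thus the higher Ifng level of the Ccl1 class was not matched by a larger thinned share of cells. Cells with 10 or more Ifng UMIs numbered 6 of 103 (5.83%) and 10 of 79 (12.7%) there, and the most in a cell was 45 in the MWA and 47 in the MWA plus TIGIT library. In all, 2879 and 3207 Ifng UMIs were spread over 1301 and 1332 cells.

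**Figure D2:**
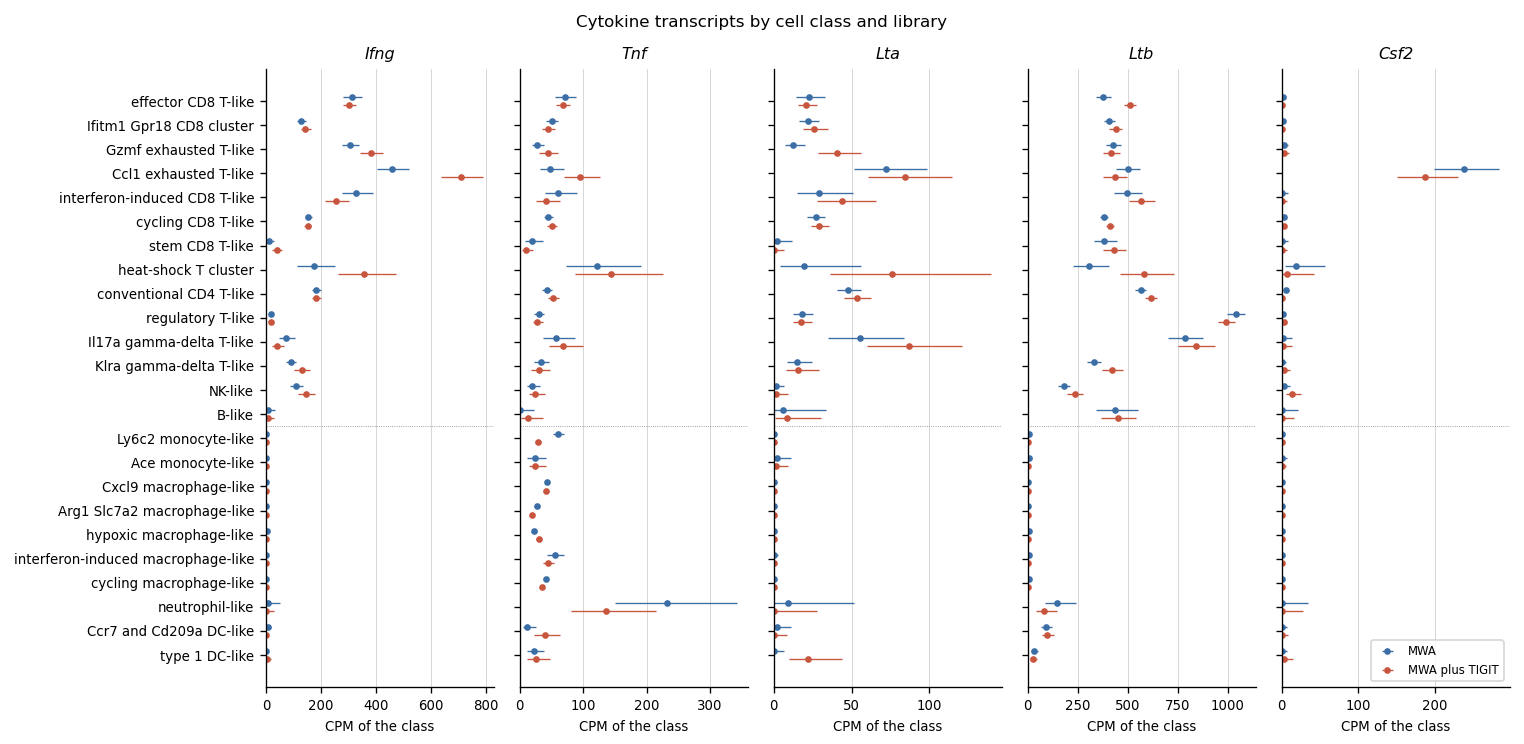
Level of each ligand gene (CPM, horizontal axis) in 24 classes (rows, lymphoid above the dotted line and myeloid below) in MWA (blue) and MWA plus TIGIT (red), with 95% intervals for counting error. Ifng, Lta, Ltb and Csf2 lie in lymphoid classes, with Csf2 highest in Ccl1 exhausted T-like cells at 238 and 187 CPM, while Tnf is spread over both parts.

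Tnf was found in both lymphoid and myeloid cells. Neutrophil-like cells had the highest level in MWA at 232 CPM (150.1 to 342) from 25 UMIs, with 136 CPM (80.4 to 214) from 18 UMIs in MWA plus TIGIT. The heat-shock T cluster had 19 UMIs in each library, 122 and 144 CPM, and overlapped the neutrophils. Among larger classes, effector CD8 T-like cells had 71.1 and 67.5 CPM and Cxcl9 macrophage-like cells 42.8 and 41.9 CPM, with no separation of the libraries. Conventional CD4 T-like cells measured 42.2 and 51.9 CPM, and regulatory T-like cells 30.2 and 27.7 CPM.

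Tnf differed in opposite directions in a T cell and a monocyte class. Ly6c2 monocyte-like cells had 424 and 441 CPM of Ly6c2 and 1145 and 1388 CPM of the macrophage gene C1qa. Ace monocyte-like cells had more Ly6c2 (1177 and 1612 CPM) and less C1qa (254 and 278 CPM), so the first name does not mark the monocytes highest in Ly6c2. In Ly6c2 monocyte-like cells Tnf was 60.3 CPM from 187 UMIs in MWA and 28.2 CPM from 146 UMIs in MWA plus TIGIT, a log2 ratio of −1.09 (−1.42 to −0.77). Only 1.78% of the genes of that class were more than 1.5-fold lower. The Tnf ratio stayed between −1.13 and −0.81 in all alternatives but the limit of 5000 UMIs, where it was −0.64 and still past 1.5-fold. Cells with a Tnf UMI were 125 of 543 (23.0%) and 117 of 652 (17.9%), with at most 6 and 4 UMIs in a cell, while the median depth of this class was 5450 and 7614 UMIs. In Ccl1 exhausted T-like cells Tnf was 48.0 CPM from 26 UMIs and 94.5 CPM from 46 UMIs, a log2 ratio of 0.98 (0.25 to 1.73), with 16 of 103 cells (15.5%) and 29 of 79 cells (36.7%) positive. Both their Cd8 cells (43.2 and 84.6 CPM) and their Cd4 cells (63.8 and 124 CPM) were higher in MWA plus TIGIT. Tnf in Gzmf exhausted T-like cells was 27.6 CPM from 36 UMIs and 43.8 CPM from 38 UMIs, with a log2 ratio of 0.67 whose interval reached −0.03.

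Macrophage classes moved less and not together. Tnf was 26.3 and 19.1 CPM in Arg1 Slc7a2 macrophage-like cells (log2 ratio −0.46, −0.76 to −0.17) and 40.5 and 34.6 CPM in cycling ones (−0.23, −0.44 to −0.02). Hypoxic macrophage-like cells went the other way, with 22.9 and 29.9 CPM (0.39, 0.03 to 0.75). None of the macrophage classes was past 1.5-fold for Tnf.

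**Figure D3:**
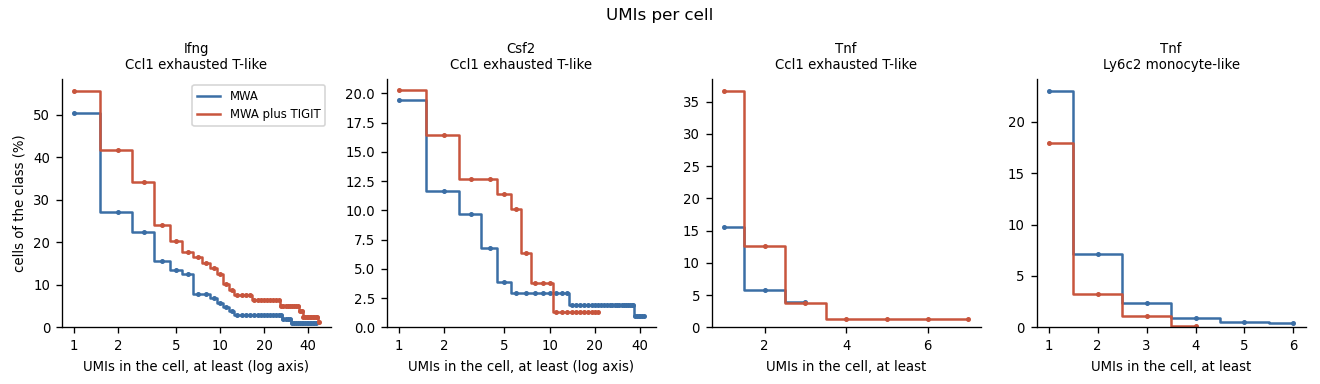
Percent of cells (vertical axis) with at least the number of UMIs on the horizontal axis (logarithmic for Ifng and Csf2), in MWA (blue) and MWA plus TIGIT (red), for Ifng, Csf2 and Tnf in Ccl1 exhausted T-like cells and Tnf in Ly6c2 monocyte-like cells. Tnf reaches 36.7% of cells against 15.5% in the Ccl1 class and 17.9% against 23.0% in the monocytes, and Csf2 reaches 42 UMIs in a cell in MWA against 21 in MWA plus TIGIT.

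Lta, which forms a soluble homotrimer or joins Ltb on the cell surface, was a low transcript of T cells. Its level was 72.0 and 84.3 CPM in Ccl1 exhausted T-like cells, 55.3 and 86.6 CPM in Il17a gamma-delta T-like cells and 47.9 and 53.4 CPM in conventional CD4 T-like cells. In each library the intervals of the others overlapped that of the highest of these, as did that of the heat-shock T cluster. In Gzmf exhausted T-like cells Lta was 12.3 CPM from 16 UMIs and 40.4 CPM from 35 UMIs, a log2 ratio of 1.72 (0.83 to 2.67), the largest ratio among the 113. The UMIs lay in 14 of 208 and 19 of 125 cells, and the ratio was between 1.35 and 2.06 in every alternative that gave one. In that class 9.12% of genes were more than 1.5-fold higher. Il17a gamma-delta T-like cells had a log2 ratio of 0.65 from 22 and 34 UMIs, with an interval that included 0 (−0.17 to 1.49). All macrophages together held 7 Lta UMIs in each library.

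Ltb was highest in regulatory T-like cells in both libraries, at 1040.0 and 994 CPM, with no other class overlapping. That was 1.84 times conventional CD4 T-like cells in MWA (1.73 to 1.96) and 1.62 times in MWA plus TIGIT (1.51 to 1.73). Il17a gamma-delta T-like cells followed with 784 and 841 CPM and conventional CD4 T-like cells with 565 and 615 CPM, and B-like cells, in the range of the CD8 classes, had 437 and 449.5 CPM. In effector CD8 T-like cells Ltb was 377 and 511 CPM, a log2 ratio of 0.44 (0.28 to 0.60), short of 1.5-fold, and 0.26 when cells with a Trav16 UMI were left out. Cells with this T cell receptor segment were 1.39% of that class in MWA and 33.9% in MWA plus TIGIT. The heat-shock T cluster had 308 and 584 CPM from 48 and 77 UMIs (log2 ratio 0.92, 0.38 to 1.47). Cxcl9 macrophage-like cells, at 3.01 and 1.91 CPM, had the lower ratio of −0.66 (−1.43 to 0.10), where 1.3% of genes were more than 1.5-fold lower. It turned to 0.94 (−5.35 to 7.23) in cells of at most 5000 UMIs, and the 10 T cell markers in the same cells summed to 29.96 and 16.5 CPM, also lower in MWA plus TIGIT.

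Csf2 had its highest level in the Ccl1 exhausted T-like cells, which held 72.1% of its 179 UMIs in MWA and 70.0% of its 130 UMIs in MWA plus TIGIT. Csf2 had been left out of the clustering, yet it was among the leading genes of that cluster, so its level there is a description. It measured 238 CPM (199 to 283) from 129 UMIs and 187 CPM (151 to 230.0) from 91 UMIs, with a log2 ratio of −0.35 (−0.75 to 0.05). No other class was above 19.2 CPM, and 19 and 20 of the 24 classes had at most 3 UMIs. Few cells decided these values: Csf2 UMIs were found in 52 and 49 cells, of which 20 and 16 were in the Ccl1 class, and the top 2 cells held 43.6% of them in MWA (42 and 36 UMIs) and 23.8% in MWA plus TIGIT (21 and 10 UMIs). Without those cells, an alternative added after the data were seen, the level in the Ccl1 class was 97.1 and 130.1 CPM and the log2 ratio turned to 0.42 (−0.14 to 0.99). Conventional CD4 T-like cells had 18 UMIs (5.94 CPM) in MWA and 3 UMIs (1.09 CPM) in MWA plus TIGIT, and NK-like cells 3 UMIs (3.65 CPM) and 8 UMIs (13.1 CPM).

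**Figure D4:**
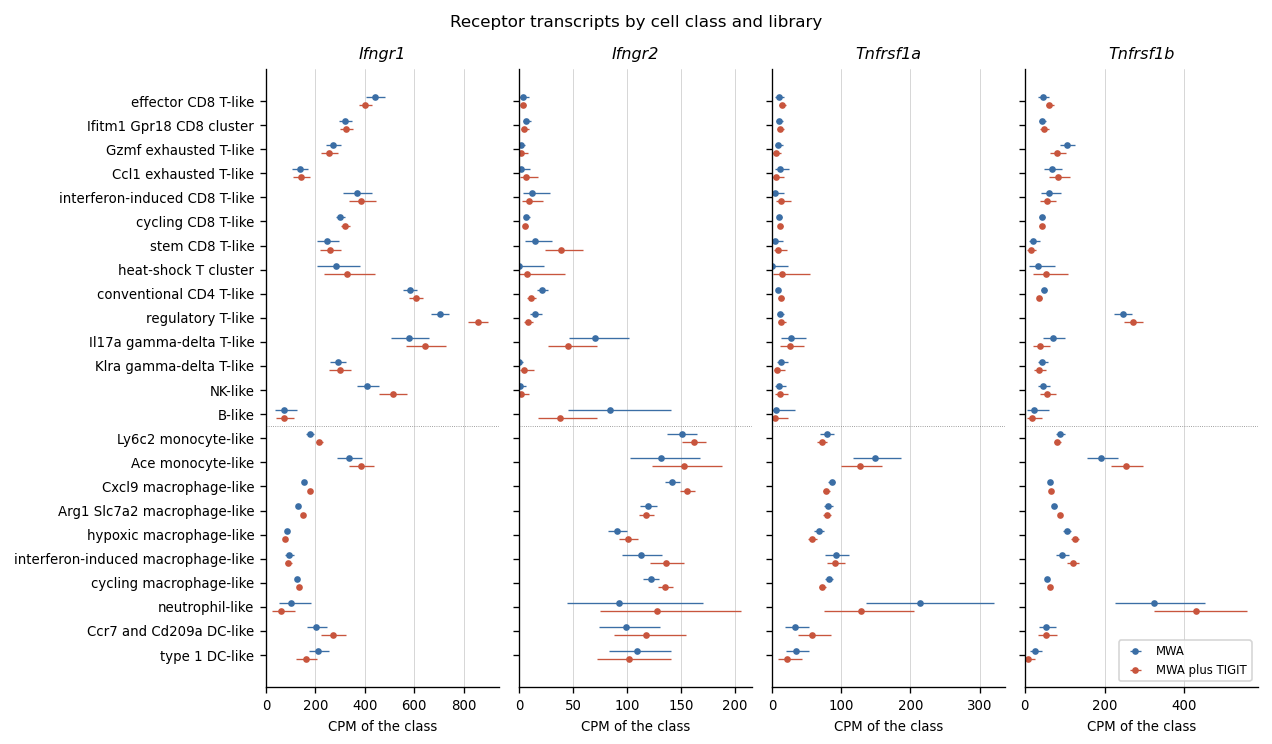
Level of each receptor gene (CPM, horizontal axis) in the 24 classes (rows) in MWA (blue) and MWA plus TIGIT (red), with 95% intervals for counting error. Ifngr1 is widespread and highest in regulatory T-like cells, Ifngr2 and Tnfrsf1a lie below the dotted line in myeloid classes, and Tnfrsf1b has a lymphoid peak in regulatory T-like cells at 246 and 272 CPM.

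The interferon-gamma receptor chains were distributed differently. Ifngr1 was highest in regulatory T-like cells, at 703 CPM (667 to 741) in MWA and 856 CPM (816 to 898) in MWA plus TIGIT, a log2 ratio of 0.28 (0.18 to 0.39), and no other class overlapped. Conventional CD4 T-like cells had 582 and 607 CPM and Il17a gamma-delta T-like cells 578 and 642 CPM, which overlapped each other. Among the CD8 classes it ran from 443 and 401 CPM in effector cells to 137 and 142 CPM in the Ccl1 exhausted T-like cells, which thus had the highest Ifng and the lowest Ifngr1 of the T cell classes. Myeloid levels were 177 and 216 CPM in Ly6c2 monocyte-like cells (log2 ratio 0.29, 0.14 to 0.44) and 83.5 and 79.1 CPM in hypoxic macrophage-like cells. NK-like cells had 410.2 and 512 CPM (0.32, 0.09 to 0.55).

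Ifngr2 was highest in myeloid cells. Ly6c2 monocyte-like cells had 151 and 162 CPM, Cxcl9 macrophage-like cells 142 and 156 CPM and Ace monocyte-like cells 132 and 153 CPM, with overlapping intervals. The last class had Ace, a marker of non-classical monocytes, among its leading genes, but more Ly6c2 than the Ly6c2 monocyte-like class. In T cells Ifngr2 was far lower, with 5.93 and 6.64 CPM over all CD8 T cells and 1.22 and 1.63 CPM in NK-like cells. In B-like cells it was 83.9 and 38.2 CPM from 14 and 9 UMIs, and the MWA interval overlapped that of the highest class. Exceptions among T cells were Il17a gamma-delta T-like cells at 70.4 and 45.9 CPM and stem CD8 T-like cells at 14.9 and 38.5 CPM from 7 and 21 UMIs. In conventional CD4 T-like cells Ifngr2 was 21.5 CPM from 65 UMIs and 10.9 CPM from 30 UMIs, a log2 ratio of −0.98 (−1.65 to −0.33), against 1.36% of that class's genes being more than 1.5-fold lower. The ratio stayed between −1.10 and −0.91 in the alternatives. The level was well below that of macrophages, whose marker genes summed to 823 and 858 CPM in these CD4 cells, and the part of free or myeloid RNA in it was not tested.

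Cells with UMIs of both chains were therefore mostly myeloid. Without thinning they were 39.7% and 50.1% of macrophages, 29.1% and 47.5% of Ly6c2 monocyte-like cells and 48.4% and 62.1% of type 1 DC-like cells. In CD8 T cells both chains were seen in 1.81% and 1.92%, and Ifngr1 alone in 65.0% and 64.6%. At 1000 UMIs per cell the shares with both were 1.46% and 1.87% in macrophages and 0.156% and 0.145% in CD8 T cells, so macrophages stayed above CD8 T cells at equal depth. Ly6c2 monocyte-like cells were then at 2.79% and 3.38%, above macrophages in both libraries, while none of the 62 and 29 type 1 DC-like cells had both chains at that depth. A cell without an Ifngr2 UMI may still express it, since most transcripts of a cell go uncaptured.

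Of the TNF receptors, Tnfrsf1a was likewise myeloid. It was 149 and 127 CPM in Ace monocyte-like cells, 213 and 128 CPM in neutrophil-like cells from 23 and 17 UMIs, and between 57.9 and 92.8 CPM in the macrophage classes. T cell classes ranged from 0 to 27.7 CPM, with the highest in Il17a gamma-delta T-like cells. Conventional CD4 T-like cells had 8.25 and 13.1 CPM from 25 and 36 UMIs, a log2 ratio of 0.66 whose interval included 0 (−0.11 to 1.46). Macrophage RNA was also present in these cells, and its part in this level was not tested.

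Tnfrsf1b was shared by neutrophils, Ace monocytes and regulatory T cells. Neutrophil-like cells had 325 and 429 CPM, regulatory T-like cells 246 and 272 CPM and Ace monocyte-like cells 192 and 254 CPM (log2 ratio 0.40, 0.03 to 0.78). Regulatory T-like cells exceeded conventional CD4 T-like cells, at 47.9 and 36.3 CPM, by 5.14 times (4.26 to 6.23) in MWA and 7.48 times (6.04 to 9.36) in MWA plus TIGIT. At 1000 UMIs, 21.6% and 24.8% of regulatory T-like cells had a Tnfrsf1b UMI and none of Tnfrsf1a. Gzmf exhausted T-like cells had the highest level among CD8 classes, 106 CPM, in MWA, and 81.9 CPM in MWA plus TIGIT, where Ccl1 exhausted T-like cells measured 84.3 CPM.

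Pooled over all CD8 T cells, the 9 genes moved little. Of the 9 with at least 50 UMIs, none was higher by 1.5-fold, against 4.22% of all genes, and Csf2 alone was lower, against 1.32%. Ifng was 207 and 231 CPM (log2 ratio 0.16, 0.07 to 0.25), Tnf 46.4 and 52.1 CPM (0.17, −0.02 to 0.36), Lta 24.7 and 29.5 CPM (0.26, 0.01 to 0.51) and Ltb 406 and 450.1 CPM (0.15, 0.09 to 0.21). The median of all 9688 genes compared in these cells was 0.15, so relative to it Ifng, Tnf and Ltb hardly differed. Csf2 was 15.95 CPM (13.5 to 18.7) and 10.5 CPM (8.60 to 12.7), a log2 ratio of −0.60 (−0.98 to −0.23), and rested on the few cells described above. Ifngr1 (309 and 326 CPM) and Tnfrsf1b (53.1 and 52.4 CPM) had log2 ratios of 0.08 and −0.02. The pool was not purely CD8, as 143 and 157 of its cells had a Cd4 UMI and no Cd8 UMI. Lta was 45.7 and 69.6 CPM in those cells, and 22.0 and 23.5 CPM in cells with a Cd8 UMI and no Cd4 UMI.

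In all macrophages, 7 of the genes were compared, with none higher (1.42% of all genes were) and Ifng alone lower (1.55% of all genes were). Ifng there was 1.81 CPM from 62 UMIs and 1.18 CPM from 51 UMIs, a log2 ratio of −0.62 (−1.19 to −0.06), and the summed T cell markers in the same cells were also lower, at 33.3 and 18.4 CPM. The receptors were measured deeply: Ifngr1 had 129 and 143 CPM (0.14, 0.09 to 0.20), Ifngr2 124 and 133 CPM (0.11, 0.05 to 0.16), Tnfrsf1a 81.9 and 75.3 CPM (−0.12, −0.19 to −0.05) and Tnfrsf1b 70.2 and 80.9 CPM (0.20, 0.13 to 0.28). Their intervals excluded 0, but the differences were under 1.5-fold and no spread between mice was available to set beside them. Among cells of at most 5000 UMIs Ifngr1 and Ifngr2 turned to −0.16 (−0.46 to 0.14) and −0.30 (−0.67 to 0.07).

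Seen by source, CD8 T cells held 66.8% and 72.7% of all Ifng UMIs and conventional CD4 T-like cells 19.3% and 15.7%. Lta had the same 2 sources, with 48.8% and 53.1% in CD8 and 30.9% and 26.2% in CD4 cells, and regulatory T-like cells added 23.5% and 20.9% of Ltb. The CD8 shares include the cells of the CD8 classes that had Cd4 UMIs and none of Cd8. Macrophages held 55.7% and 57.7% of Tnf, less than their 60.3% and 63.8% of all UMIs, and 82.7% and 81.7% of Ifngr2. Thus in both libraries most interferon-gamma transcript lay in T cells and most transcript of its signalling chain in macrophages.

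**Figure D5:**
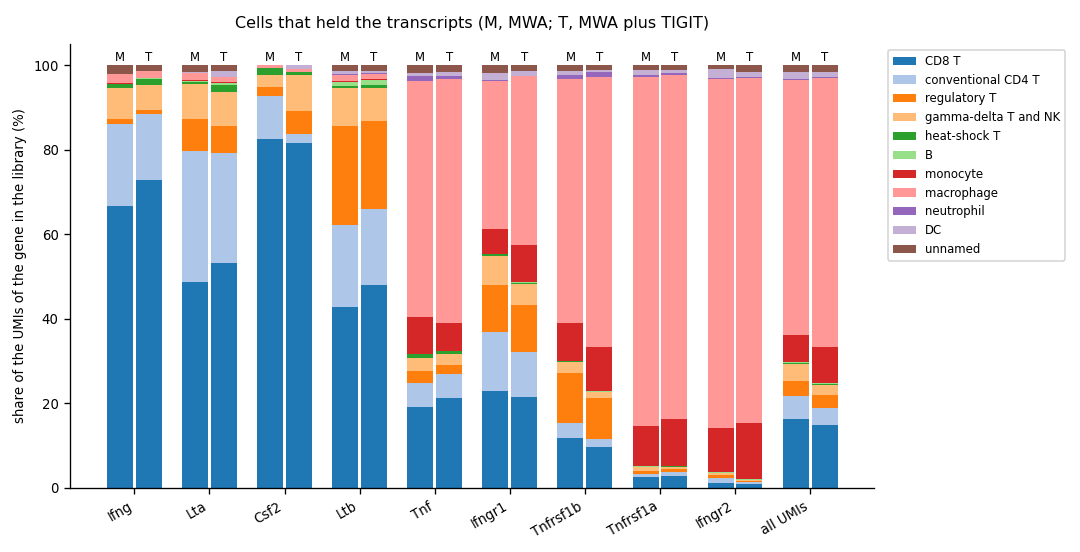
Percent of each gene's UMIs (vertical axis) by lineage, as stacked bars for MWA (M) and MWA plus TIGIT (T), with all UMIs of the library for comparison. CD8 T cells hold 66.8% and 72.7% of Ifng, and macrophages 82.7% and 81.7% of Ifngr2.

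Ligands were also looked at in the same cell. Of CD8 T cells with an Ifng UMI, 21.1% and 24.6% also had Tnf, against 14.4% and 13.9% of those without. After thinning to 1000 UMIs the shares were 4.71% and 7.47% against 4.17% and 5.08%, a smaller gap. Lta was seen in 10.9% and 11.5% of CD8 T cells with Ifng and in 7.18% and 7.22% without. Thinned, Lta was in 2.06% against 2.34% in MWA and in 4.27% against 2.36% in MWA plus TIGIT, so its order turned in MWA. Cells of greater depth have more of every transcript, and the unthinned shares carry that.

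Genes around the ligands and receptors were taken from 9 lists. In all CD8 T cells, 2 of 10 compared inducers of Ifng were higher past 1.5-fold, as were 4.22% of all genes, and none lower, with a median log2 ratio of 0.30 beside 0.15 for all genes. They were Il18r1, a chain of the IL-18 receptor, at 62.5 and 96.8 CPM (0.63, 0.48 to 0.78), and the T-box factor Eomes at 22.9 and 34.5 CPM (0.59, 0.34 to 0.85). After TMM scaling, tried for these genes after the data were seen, Il18r1 was at 0.50 and Eomes at 0.46, both under 1.5-fold. Tbx21, the T-bet gene, was 27.6 and 37.0 CPM (0.42). Of 9 other TNF superfamily ligands, Tnfsf14, which encodes LIGHT, was higher at 4.53 and 8.13 CPM (0.84, 0.29 to 1.42) and Tnfsf13b, which encodes the B cell factor BAFF, was lower at 3.88 and 1.59 CPM (−1.29, −2.24 to −0.40). None of 13 interferon-gamma signalling genes, 26 interferon-gamma induced genes, 22 receptor adaptors and NF-kB genes, 10 shedding and decay genes, 21 TNF and NF-kB induced genes or 7 GM-CSF receptor and signalling genes was past 1.5-fold there.

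Macrophages differed even less in these lists. Of 28 interferon-gamma induced genes Nos2, which makes nitric oxide, was the single gene past 1.5-fold, at 4.18 and 7.35 CPM (log2 ratio 0.81, 0.52 to 1.11), and the list's median was 0.10 beside 0.04 for all genes. Among 25 TNF and NF-kB induced genes the adhesion gene Vcam1 was higher at 10.3 and 16.2 CPM (0.66, 0.47 to 0.85), with a list median of −0.06. The other 7 lists had no macrophage gene past 1.5-fold in either direction.

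In Ccl1 exhausted T-like cells, where Ifng and Tnf were higher, few list genes reached 50 UMIs. Named after their values were seen, Il18rap, the second chain of the IL-18 receptor and the 1 of 5 inducers of Ifng that was higher, was 77.6 and 171 CPM (log2 ratio 1.14, 0.58 to 1.71) and Cflar, an inhibitor of caspase 8 and 1 of 8 adaptors and NF-kB genes, was 46.2 and 125 CPM (1.44, 0.75 to 2.17). Of 11 TNF and NF-kB induced genes, Nfkbib (0.72) and Nfkbiz (0.62, and 0.50 after TMM scaling) were higher. In this class 9.24% of all genes were more than 1.5-fold higher. Of 10 interferon-gamma induced genes there, Tap1, the peptide transporter, was the only one past 1.5-fold and it was lower (−0.68), as were 2.05% of all genes. In Ly6c2 monocyte-like cells, where Tnf was lower, none of 24 TNF and NF-kB induced genes was past 1.5-fold, and their median was −0.13 beside 0.05 for all genes. Of 26 interferon-gamma induced genes in these monocytes, Serpina3g was higher at 9.99 and 25.9 CPM (1.38), as were 4.16% of all genes, and the GTPase gene Iigp1 lower at 8.70 and 4.64 CPM (−0.91).

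Partners of the ligands were placed in other cells. Ltbr, the lymphotoxin receptor, had 34.0 and 35.1 CPM in macrophages and 0.862 and 0.496 CPM in CD8 T cells. The GM-CSF receptor chain Csf2rb, shared with the IL-3 and IL-5 receptors, was 325 and 422 CPM in neutrophil-like cells, 183 and 176 CPM in Ly6c2 monocyte-like cells and 75.7 and 78.9 CPM in macrophages, and Csf2ra was 149 and 148 CPM in macrophages. Csf2 was thus highest in a T cell cluster and its receptor chains in myeloid cells. Zfp36, whose product binds AU-rich elements and speeds decay of Tnf mRNA, was 1791 and 1733 CPM in neutrophil-like cells, 615 and 588 CPM in macrophages and 94.0 and 100.2 CPM in CD8 T cells. In the Ly6c2 monocyte-like cells Zfp36 was 609 and 623 CPM and Adam17 74.2 and 88.4 CPM, neither past 1.5-fold. Decay of Tnf mRNA and release of its protein were not tested.

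Across the 24 classes, the genes whose levels followed each member most closely are given as a description, since all points of a library share its depth and many share a lineage. Over 9676 genes, Ifng was near to Cd226, an activating receptor that competes with TIGIT for ligand (Pearson r of log2 CPM with 10 added, 0.935 in MWA and 0.937 in MWA plus TIGIT), Cd96 (0.935 and 0.939) and Klrc1. Ltb was nearest to Ptprcap (0.974 and 0.978), Gimap3 and Ablim1, Lta to Xlr4b, Cxcr6 and Ly6g5b, and Csf2 to Ccl1, Nrgn and Tnfsf8. Tnf, the ligand spread over lineages, had the weakest match, with Ell (0.687 and 0.675) and Sap18. Ifngr1 was nearest to Sept9, Sh2b1 and Itgb7, Ifngr2 to Ctsh, Fes and Lrrc25, Tnfrsf1a to Ccl6, Lrrc25 and Tlr2, and Tnfrsf1b to Tmem120a, Nfil3 and N4bp1. Within the set, Ifng and Ifngr2 had the most opposed pattern, with r of −0.880 and −0.920 over 24 classes, and Ifngr1 and Ifngr2, chains of the same receptor, were also opposed (−0.523 and −0.551).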

How the data were processed

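Per the labels, CD45+ cells were captured with 10x Genomics V3.1 3′ chemistry and the authors aligned reads with Cell Ranger (6.1.1) to mm10; the deposited matrices hold raw UMI counts per gene and barcode. Barcodes with under 200 genes or over 10% mitochondrial UMIs and doublets (called by artificial doublet neighbours) were left out. Cells were integrated and clustered with Seurat 5.3.0 (R 4.3.3), with the 9 genes and receptor V segments left out. The members and lists were chosen with earlier results of these data known. Counts were summed per class and library. CPM has exact Poisson and the ratio exact conditional binomial 95% intervals (scipy 1.17.1), shares exact Clopper-Pearson. A gene was compared at 50 or more UMIs over both libraries, and past 1.5-fold counted as higher or lower. A count of 0 was bounded with 3 counts. Named were the 9 members, partners fixed by role, the 3 most similar genes per member and, per list in all CD8 T cells and all macrophages, up to 2 genes highest and lowest past 1.5-fold; others were chosen after their values were seen, and some items the rule names are not reported here. Alternatives were TMM (edgeR 4.0.16), other filters, thinning to 2000 UMIs, equal cell weights, marker gates and cluster resolution.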

Additional observations from a re-analysis of the deposited data

Results flagged for a closer look

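Tnf stood in opposite directions in a lymphoid and a myeloid class under the same contrast: the log2 ratio of MWA plus TIGIT over MWA was 0.98 in Ccl1 exhausted T-like cells (0.25 to 1.73, from 26 and 46 UMIs) and −1.09 in Ly6c2 monocyte-like cells (−1.42 to −0.77, from 187 and 146 UMIs). What drew attention is that the only library of each group moved one way in the first class and the other way in the second. The difference between the classes was not tested, because each group has 1 library. The median depth of the monocytes was 5450 and 7614 UMIs, and the part of depth in the lower level was not tested beyond the limit of 5000 UMIs per cell, at which the ratios were 2.18 and −0.64.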

How the results depend on the processing

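No paired analysis was possible because each group has 1 library. Ratios are log2 MWA plus TIGIT over MWA, in all CD8 T cells unless macrophages are named. With TMM scaling, which shifted all CD8 ratios by −0.13 and all macrophage ratios by −0.04, Ifng was at 0.023, Ifngr1 at −0.056 and Ltb at 0.015. With cells chosen by marker gates in place of clusters Ifng was at 0.31, Lta at −0.074, Ltb at 0.31 and Csf2 at −1.13. Restricted to cells of at most 5000 UMIs, Ltb was at 0.25. In macrophages under that limit Ifng was at −2.41, Ifngr1 −0.16, Ifngr2 −0.30, Tnf 0.32, Tnfrsf1a −0.31 and Ltb 1.17, each with an interval that included no difference. The limit lay below the median depth of macrophages, 8580 and 10599 UMIs. Ltb in Cxcl9 macrophage-like cells turned from −0.66 to 0.94 (−5.35 to 7.23) under it. The cause was not tested. Without Trav16 cells Ltb was 0.044, with equal cell weights Ifngr1 in macrophages was 0.084, and with the doublet share doubled Tnf in macrophages was −0.27. Without the 2 cells with the most Csf2 UMIs, Csf2 in the Ccl1 class turned from −0.35 to 0.42. Ifng in that class was 1.05 in its Cd8 cells and turned to −1.34 in its 21 and 23 Cd4 cells.

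The count of gene and class combinations that were higher, 8, became 5 with TMM, 20 at 5000 UMIs or fewer, 21 with a minimum of 1 UMI and 2 at 2-fold. The 3 lower became 7 at 5000 UMIs or fewer, 5 with doublets doubled, 16 with a minimum of 20 UMIs, 25 with a minimum of 1 UMI and 1 at 2-fold. The background of all CD8 genes higher (4.22%) became 16.6% at 1 UMI and 0.506% at 2-fold, and lower (1.32%) became 3.05% at 20 UMIs, 13.5% at 1 UMI and 0.227% at 2-fold. In macrophages, higher (1.42%) became 2.74%, 14.5% and 0.233%, and lower (1.55%) 3.12%, 13.1% and 0.242%, at the same 3 settings. Thinned to 1000 UMIs, the share of cells with a UMI differed by 0.46 percentage points for Ifng in CD8 T cells, but by 3.55 at 2000 UMIs; Csf2 differed by 0.01, and by −0.52 unthinned. In macrophages the differences were 1.82 for Ifngr1 (7.46 unthinned), 0.64 for Ifngr2 (9.22 unthinned), −0.62 for Tnf (0.30 at 2000 UMIs and 0.34 unthinned), 0.32 for Tnfrsf1a (−1.58 at 2000 UMIs and 5.58 unthinned) and 0.47 for Tnfrsf1b (1.88 at 2000 UMIs and 10.8 unthinned). Of 129 ratios, 0 left the interval of the reported value when shared barcodes were left out or the mitochondrial limit was 5%, and 3 of 128 did with another cluster resolution. At 5000 UMIs or fewer 43 of 125 did and 1 more reversed, and 17 ratios crossed 1.5-fold. Depth limits the macrophage shares, whose differences were larger unthinned for the 4 receptors.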

Other observations

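A cluster that held Ccr7 and Cd209a dendritic cells differed in Il12b, which encodes a subunit of IL-12, a strong inducer of Ifng. Of its cells, 35 of 83 in MWA and 2 of 52 in MWA plus TIGIT had a Ccr7 UMI, the marker of mature dendritic cells that travel to lymph nodes. Il12b had 198 UMIs in 21 cells, 393 CPM, in MWA and 0 UMIs in MWA plus TIGIT, at least 56.8-fold lower against a floor of 3 counts (6.93 CPM). Over the whole libraries it had 255 UMIs in 35 cells and 35 UMIs in 12 cells, and in type 1 DC-like cells 74.8 and 74.6 CPM. Cd209a, of the type 2 cells, was in 22 and 23 cells of the cluster at 171 and 268 CPM, so the cluster held a different mix of cells in each library, and composition and level per cell cannot be told apart.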
